A study of Homo sapiens with 6 samples.

Results

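The TMEM-named genes, whose symbols stand for "transmembrane protein", were described in SNU216 cells after knockdown of the oxytocin receptor. Members were all genes of the deposited tables whose symbol is TMEM followed by digits and at most 1 letter, with TMEM147 and TMEM258 left out. The rule gave 207 members of 17318 genes. Of these, 148 averaged 1 FPKM or more across the 6 libraries and were tested among 11550 genes. FPKM counts fragments relative to transcript length and to the mapped fragments of the library.

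SNU216 is an established human gastric cancer cell line. RNA was measured in 3 libraries of cells given siOXTR, which targets the receptor's gene, and in 3 libraries of cells given siControl. Both groups were transfected for 48 h and were grown in RPMI1640 with fetal bovine serum. The study's title places the comparison in the interplay of the oxytocin receptor with YAP, a co-activator of TEAD transcription factors. Whether each library had its own culture is not in the labels, and the spread behind every p-value is that of these libraries and may be technical in part. The results cover 1 cell line and 1 time.

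The targeted gene was low in every siOXTR library. OXTR, a Gq-coupled receptor, had 4.76, 4.65 and 5.34 FPKM in siOXTR libraries, against 39.37, 38.87 and 39.02 FPKM in siControl libraries. Its log2 fold change was -2.76 (SE 0.061, limma adjusted p = 6.39e-11). All 6 epithelial markers examined (EPCAM, CDH1, KRT8, KRT18, KRT19 and CLDN4) reached 1 FPKM, with summed levels of 8053 to 8218 FPKM in siOXTR libraries and 7016 to 8089 FPKM in siControl libraries. The keratins carried this sum, and the markers did not move alike. CDH1, or E-cadherin, averaged 20 ± 0.243 FPKM in siOXTR libraries and 76.1 ± 3.28 FPKM in siControl libraries (SD, n = 3), with a log2 fold change of -1.88 (limma adjusted p = 1.52e-10). EPCAM (log2 fold change -0.997, limma adjusted p = 5.53e-08) and CLDN4 (-0.41, limma adjusted p = 3.74e-05) were also lower, KRT8 and KRT18 did not pass, and KRT19 was higher (0.27, limma adjusted p = 0.0110) but not after rescaling of the libraries by the trimmed mean of M values (0.14, limma adjusted p = 0.162). The gastric markers MUC5AC and GKN1, which mark mature surface cells, did not reach 1 FPKM in any library, so the line was not marked as gastric by them. Only these 2 of 4 listed gastric markers had values, since TFF1 and TFF2 were absent from the deposited data. Among markers of other cell types, 1 of 5 fibroblast, 2 of 4 blood and 0 of 3 endothelial markers in the files reached 1 FPKM. The fibroblast markers summed to 0.61 to 0.81 FPKM in siOXTR libraries and 1.62 to 2.02 FPKM in siControl libraries. The endothelial markers summed to 0.39 to 0.62 FPKM in siOXTR libraries and 0.59 to 0.96 FPKM in siControl libraries. The blood markers summed to 1.79 to 2.91 FPKM in siOXTR libraries and 1.33 to 1.98 FPKM in siControl libraries, and the part of these markers' cells in the results below was not tested. Libraries of 1 group correlated with r between 0.995 and 0.998 across tested genes, and libraries of different groups with r between 0.974 and 0.976.

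TMEM is a naming class and not a family. The symbol is given to genes that are predicted to encode a membrane-spanning protein, and it is often replaced once a function is known. Members that keep the symbol include channels and transporters, assembly factors of the mitochondrial respiratory chain, components of the gate at the base of the primary cilium, and proteins of the endoplasmic reticulum (ER), the nuclear envelope, the Golgi apparatus and the lysosome. Except for mitochondrial proteins, most such proteins are inserted into the ER membrane during their synthesis, and many carry a hydrophobic stretch near their N-terminus that directs the ribosome there.

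The results below turn on TMEM45A, TMEM123 and TMEM109, which were among the members with the largest falls, and on TMEM126A, which had the largest rise. Their promoters are shown because the study concerns YAP, whose partner TEAD binds the letters GGAATG. The reverse complement, which is how a site on the opposite strand appears, reads CATTCC. Each line gives the 250 bases before the RefSeq start on GRCh38.p14, 5′ to 3′ on the gene's strand, with any match to either motif strand in capitals. The windows are chr3:100492369-100492618 (plus strand) for TMEM45A, chr11:102452766-102453015 (minus strand) for TMEM123, chr11:60913908-60914157 (plus strand) for TMEM109 and chr11:85647717-85647966 (plus strand) for TMEM126A.
TMEM45A: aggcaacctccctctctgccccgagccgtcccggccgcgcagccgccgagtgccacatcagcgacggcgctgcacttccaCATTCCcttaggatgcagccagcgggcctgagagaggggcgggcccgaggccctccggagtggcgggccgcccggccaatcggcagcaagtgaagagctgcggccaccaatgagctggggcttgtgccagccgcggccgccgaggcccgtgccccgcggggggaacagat
TMEM123: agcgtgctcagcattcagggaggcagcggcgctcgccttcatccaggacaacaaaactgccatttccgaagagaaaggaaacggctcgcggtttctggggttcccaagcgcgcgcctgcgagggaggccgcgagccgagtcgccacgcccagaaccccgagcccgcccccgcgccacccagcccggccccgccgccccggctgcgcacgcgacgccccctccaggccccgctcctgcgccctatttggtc
TMEM109: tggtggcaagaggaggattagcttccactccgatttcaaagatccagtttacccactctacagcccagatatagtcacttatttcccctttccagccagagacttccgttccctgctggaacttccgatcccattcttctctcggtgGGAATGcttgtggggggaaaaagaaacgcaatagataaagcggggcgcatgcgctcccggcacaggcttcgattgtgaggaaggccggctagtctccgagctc
TMEM126A: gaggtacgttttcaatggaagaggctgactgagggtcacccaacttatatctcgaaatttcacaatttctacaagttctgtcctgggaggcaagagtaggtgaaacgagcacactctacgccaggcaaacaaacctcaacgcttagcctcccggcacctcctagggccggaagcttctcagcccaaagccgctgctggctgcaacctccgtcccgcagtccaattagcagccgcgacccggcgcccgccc
The match began 170 bases before the RefSeq start in TMEM45A and 103 bases before it in TMEM109. The windows of TMEM123 and TMEM126A held none. The windows shown are examples, and TMEM132A and TMEM131L, which fell more than TMEM109, are not among them. Among the 12 largest falls, the only matches were in TMEM45A, TMEM109 and TMEM63B, and TMEM132A, TMEM30A and TMEM67 had no RefSeq promoter to search. The windows of TMEM109 and TMEM123 lie inside the gene spans given below from GENCODE, whose outermost start is farther upstream than that of RefSeq. For TMEM109 and TMEM123 the sequence shown, and the match in TMEM109, is thus upstream of the RefSeq start only.

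Of the 148 tested members, 124 had a promoter in the RefSeq table, 31 of them with more than 1 window, and a gene was counted if any of its windows held the motif on either strand. GGAATG was present in 13 of the 124 members (10.5%), against 12.9% of 9511 tested genes and 14.3% of all 27305 genes of the table. It was present in 8 of the 50 matched members called lower in siOXTR libraries (TMEM45A, TMEM59, TMEM63B, TMEM87A, TMEM109, TMEM181, TMEM237 and TMEM260), in 1 of 25 called higher (TMEM40) and in 4 of 49 that were not called. These shares are 16.0%, 4.0% and 8.16%, beside 12.9% of tested genes, and their difference was not tested. The shares among all genes called lower or higher are not given. The letters TGATGNAA, which ATF4-containing dimers bind, were present in 1 of the 124 members (TMEM102), against 2.07% of tested genes and 3.89% of all genes of the table. The ER stress response element was present in 1 of the 124 members (TMEM120A), against 0.147% of tested genes and 0.0916% of all genes of the table. These counts describe letters in the windows and not binding.

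More members fell than rose in siOXTR cells. Of the 148 tested members, 57 (38.5%) were lower in siOXTR libraries than in siControl libraries, 29 (19.6%) were higher and 62 did not pass an adjusted p of 0.05 (limma on log2(FPKM + 1), Benjamini-Hochberg over all tested genes). Among all tested genes, 17.6% were called lower, 42.2% were called higher and 59.8% were called in either direction. The median log2 fold change of the members was -0.02, with quartiles at -0.43 and 0.15, against 0.13 over all tested genes. Of the 148 members, 57 lay lower and 32 higher with no overlap between the 2 groups of libraries, and 64.4% of all tested genes had no overlap (19.2% lower and 45.2% higher). The called members whose groups overlapped were TMEM115 (called lower) and TMEM250 (called higher), which are named here after their values were seen. A fall of 1 or more on the log2 scale was called in 6 members, and such falls were called in 2.34% of all tested genes. No member rose by 1 or more, and 0.0693% of all tested genes did.

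Whether the small rises were called depended on how libraries were scaled. The deposited FPKM values summed to between 446246 and 459595 in siOXTR libraries and to between 417829 and 434167 in siControl libraries. Rescaling the libraries by the trimmed mean of M values (TMM), which centres the log ratios of most genes, moved the median of all tested genes by -0.11. After it 67 members were called lower and 13 higher, against 24.3% and 19.6% of all tested genes, and the members' median was -0.14. All 57 members called lower on the deposited scale were also called lower after TMM. Of the 29 members called higher, 13 were also called higher after TMM and 0 were called lower. Another 10 members that had not been called were lower after TMM, with TMEM14A, TMEM41B, TMEM106C and TMEM120B among them.

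**Figure D1:**
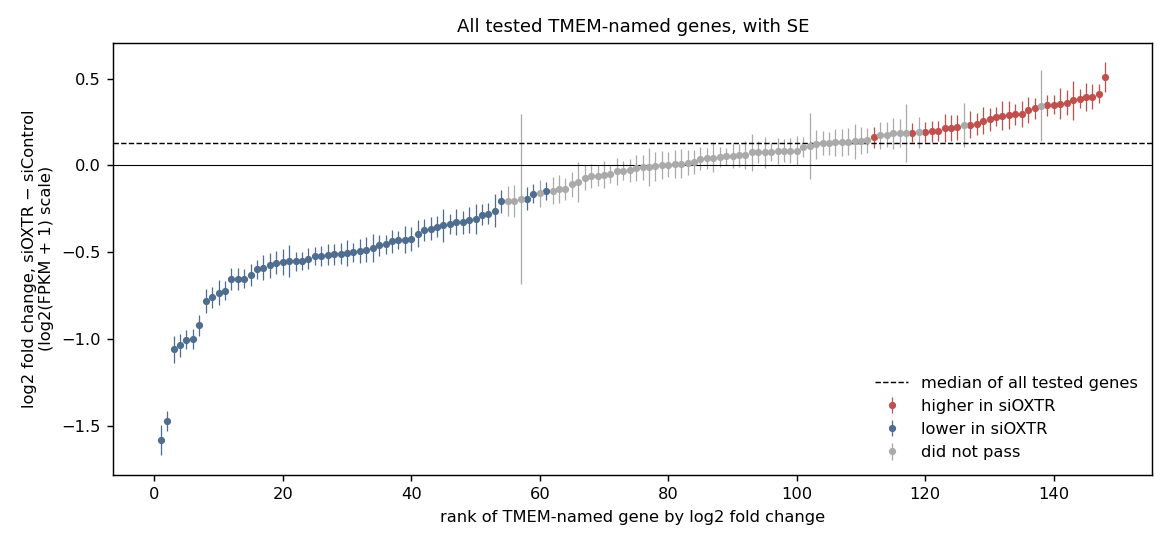
Log2 fold change (siOXTR minus siControl, on the log2(FPKM + 1) scale) of the 148 tested TMEM-named genes in rank order, with the standard error of the limma fit as bars. Members called lower, 57 in all, reach -1.58 on the left, the 29 called higher reach 0.51 on the right, and the dashed line is the median of all tested genes, 0.13.

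Levels spanned a wide range. Of the tested members, 82 had a mean of at least 10 FPKM, 66 lay between 1 and 10 FPKM, and 9 reached 50 FPKM. The median of the members' mean levels was 12.5 FPKM, against 13.4 FPKM over all tested genes. TMEM123 had the highest mean (241 FPKM), followed by TMEM14B (175 FPKM), TMEM230 (128 FPKM), TMEM14C (121 FPKM) and TMEM139 (74.5 FPKM). The order differed between the groups. In siOXTR libraries TMEM14B was first with 180 ± 7.27 FPKM, TMEM230 second with 142 ± 5.42 FPKM and then TMEM123 with 127 ± 1.66 FPKM, beside TMEM14C with 124 ± 2.59 FPKM (SD, n = 3). In siControl libraries TMEM123 was first with 355 ± 24.1 FPKM, followed by TMEM14B with 170 ± 1.78 FPKM, TMEM14C with 119 ± 2.45 FPKM and TMEM230 with 115 ± 8.61 FPKM (SD, n = 3). TMEM14C and TMEM230 in siControl libraries, and TMEM123 and TMEM14C in siOXTR libraries, differed by less than the spread of the libraries or touched in range. The fold change of a member did not go with its level (Spearman rho -0.0055 across 148 genes, which are not independent replicates).

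The tested members together summed to 2858 ± 27.4 FPKM in siOXTR libraries and 3260 ± 60.3 FPKM in siControl libraries (SD, n = 3). They made up 0.625% to 0.637% of the summed FPKM of tested genes in siOXTR libraries and 0.759% to 0.767% in siControl libraries. TMEM123 alone held 4.42% to 4.45% of the members' sum in siOXTR libraries and 10.1% to 11.3% in siControl libraries. Without TMEM123 the sum was 2731 ± 25.8 FPKM in siOXTR libraries and 2905 ± 59.8 FPKM in siControl libraries (SD, n = 3), and the 2 groups did not overlap.

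Plasma membrane members had the lowest median of the 5 lists grouped by compartment. Of 9 tested, 7 were lower in siOXTR libraries, 1 was higher and 1 did not pass, and the median log2 fold change was -0.54. Among all tested genes 17.6% were called lower and 42.2% higher. Among 3472 other tested genes with a hydrophobic segment, counted as described below, these shares were 40.8% and 23.4%. TMEM158 was 1 of the 7 and of the 57 members called lower (log2 fold change -0.48, limma adjusted p = 4.21e-04). It averaged 0.703 FPKM in siOXTR libraries and 1.37 FPKM in siControl libraries. TMEM158 thus passed the limit of 1 FPKM only through siControl libraries, and its fall is tied to that filter. TMEM123, also called porimin, is a mucin-like surface receptor linked to oncotic cell death, at chr11:102396332-102453044. It had 125.23, 128.54 and 126.78 FPKM in siOXTR libraries, against 360.00, 328.46 and 375.76 FPKM in siControl libraries. Each siOXTR library was far below each siControl library, and the siOXTR libraries differed little among themselves. TMEM123 was 2.80-fold lower in siOXTR libraries, with a log2 fold change of -1.47 (SE 0.058, limma adjusted p = 1.42e-09). Fewer cells with a transcript and less of it per cell cannot be told apart in these bulk libraries.

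TMEM132A, a protein that binds the chaperone HSPA5, had 21.67, 20.11 and 18.85 FPKM in siOXTR libraries, against 43.34, 48.10 and 38.51 FPKM in siControl libraries. All siOXTR libraries lay below all siControl libraries, with a log2 fold change of -1.06 (SE 0.078, limma adjusted p = 3.10e-07). TMEM30A encodes CDC50A, the subunit that lipid flippases need to leave the ER and to move phosphatidylserine to the inner leaflet. It had 18.56, 18.13 and 17.75 FPKM in siOXTR libraries, against 34.88, 33.13 and 37.92 FPKM in siControl libraries. The groups were clearly apart, with a log2 fold change of -0.92 (SE 0.060, limma adjusted p = 9.12e-08).

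The mechanosensitive channel gene TMEM63B had 10.65, 10.74 and 10.94 FPKM in siOXTR libraries, against 18.27, 19.04 and 17.93 FPKM in siControl libraries (log2 fold change -0.72, SE 0.055). Its relative TMEM63A was also lower, with 14.13, 13.40 and 14.42 FPKM in siOXTR libraries, against 18.56, 19.58 and 17.03 FPKM in siControl libraries (log2 fold change -0.37, SE 0.063). Both were called (limma adjusted p = 4.34e-07 for TMEM63B and 4.04e-04 for TMEM63A), and neither overlapped between groups. TMEM219, a cell death receptor for IGFBP3, was the member of this list that rose. It had 41.21, 38.49 and 38.94 FPKM in siOXTR libraries, against 33.00, 34.16 and 25.54 FPKM in siControl libraries (log2 fold change 0.36, SE 0.090, limma adjusted p = 0.00536). After TMM scaling TMEM219 was no longer called (log2 fold change 0.23, limma adjusted p = 0.0517).

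**Figure D2:**
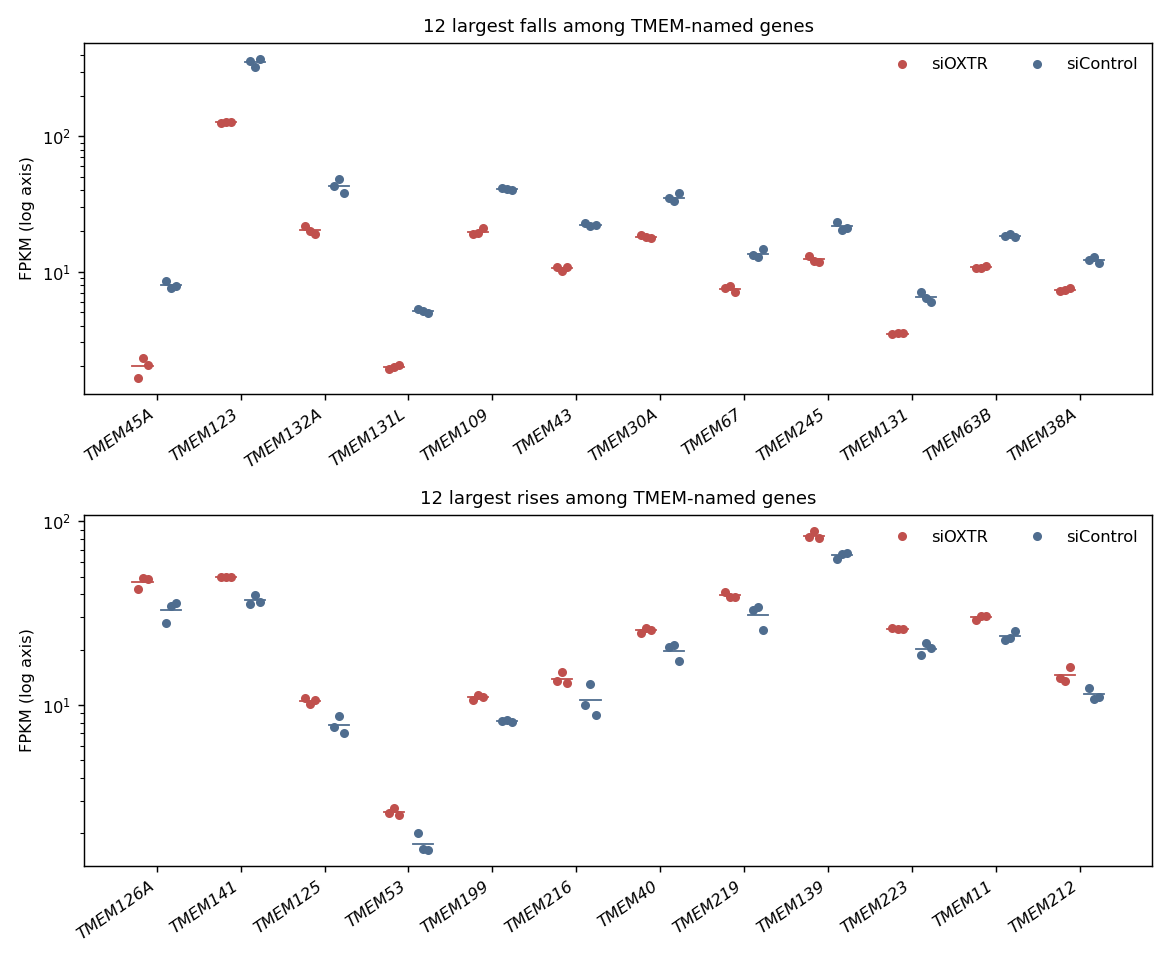
FPKM on a log axis in each of 3 siOXTR libraries (left of each pair) and 3 siControl libraries (right), with the group mean as a line, for the 12 TMEM-named genes with the largest falls and the 12 with the largest rises among called members with no overlap. TMEM123 lies at 125 to 129 FPKM in siOXTR libraries and at 328 to 376 FPKM in siControl libraries, and the gaps of the rising genes are smaller.

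ER and nuclear envelope members mostly fell. Of 22 tested, 13 were lower in siOXTR libraries, 3 were higher (TMEM18, TMEM53 and TMEM208) and 6 did not pass, and the median log2 fold change was -0.36. The shares lower and higher were 59.1% and 13.6%, beside 17.6% and 42.2% of all tested genes. TMEM109, known as mitsugumin 23, forms a cation channel of the ER and nuclear membranes and lies at chr11:60913874-60923443. It had 18.92, 19.47 and 21.06 FPKM in siOXTR libraries, against 41.35, 40.60 and 40.09 FPKM in siControl libraries. No siOXTR library came near a siControl library, and the log2 fold change was -1.0 (SE 0.056, limma adjusted p = 2.32e-08). TMEM43, or LUMA, is an inner nuclear membrane protein that binds emerin, at chr3:14124940-14143679. It had 10.79, 10.19 and 10.91 FPKM in siOXTR libraries, against 22.86, 21.78 and 22.13 FPKM in siControl libraries (log2 fold change -1.0, SE 0.056, limma adjusted p = 2.40e-08).

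TMEM131, which helps collagen leave the ER, had 3.46, 3.52 and 3.50 FPKM in siOXTR libraries, against 7.10, 6.35 and 6.00 FPKM in siControl libraries. Its log2 fold change was -0.73 (SE 0.071, limma adjusted p = 3.60e-06). TMEM131L, a relative of TMEM131 that is in none of the compartment lists, had 1.90, 1.98 and 2.05 FPKM in siOXTR libraries, against 5.26, 5.11 and 4.94 FPKM in siControl libraries. The fall of TMEM131L (log2 fold change -1.04, SE 0.067, limma adjusted p = 9.12e-08) was 2.58-fold as a ratio of mean FPKM, since the added pseudocount of 1 FPKM shrinks changes at low levels.

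TMEM38A and TMEM38B encode the TRIC channels, which carry potassium across the ER membrane as calcium is released. TMEM38A had 7.26, 7.35 and 7.55 FPKM in siOXTR libraries, against 12.14, 12.85 and 11.62 FPKM in siControl libraries (log2 fold change -0.65, SE 0.061). TMEM38B had 6.77, 6.58 and 5.81 FPKM in siOXTR libraries, against 9.34, 8.74 and 11.58 FPKM in siControl libraries (log2 fold change -0.55, SE 0.092). Both passed the test (limma adjusted p = 2.68e-06 for TMEM38A and 3.31e-04 for TMEM38B). TMEM53, a nuclear envelope protein that restrains BMP signalling, moved the other way, with 2.59, 2.74 and 2.52 FPKM in siOXTR libraries, against 2.01, 1.65 and 1.62 FPKM in siControl libraries. Its log2 fold change was 0.39 (SE 0.080, limma adjusted p = 0.00136), and it was also called after TMM scaling (0.31, limma adjusted p = 0.00841).

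Golgi, endosome and lysosome members were split. Of 18 tested, 9 were lower, 3 were higher (TMEM199, TMEM230 and TMEM251) and 6 did not pass, with a median log2 fold change of -0.10. The Golgi protein gene TMEM87B had 13.05, 13.67 and 13.56 FPKM in siOXTR libraries, against 22.51, 20.87 and 21.64 FPKM in siControl libraries (log2 fold change -0.65, SE 0.056). TMEM87A fell by 0.52 (SE 0.054). TMEM59, which acts in Golgi glycosylation and autophagy, had 50.65, 54.56 and 56.17 FPKM in siOXTR libraries, against 82.24, 77.89 and 68.77 FPKM in siControl libraries (log2 fold change -0.49, SE 0.069).

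TMEM165, a Golgi cation transporter whose loss impairs protein glycosylation in people, averaged 53.3 ± 2.06 FPKM in siOXTR libraries and 73.8 ± 5.21 FPKM in siControl libraries (SD, n = 3). Its log2 fold change was -0.46 (SE 0.060, limma adjusted p = 5.37e-05). TMEM199, which assembles the proton pump of acidic organelles, had 10.70, 11.26 and 11.02 FPKM in siOXTR libraries, against 8.16, 8.30 and 8.07 FPKM in siControl libraries. It was higher in each siOXTR library than in any siControl library (log2 fold change 0.39, SE 0.058, limma adjusted p = 1.46e-04). TMEM230, a protein of Golgi-derived vesicles and one of the most abundant members, had 135.30, 144.06 and 145.20 FPKM in siOXTR libraries, against 112.07, 108.84 and 125.11 FPKM in siControl libraries (log2 fold change 0.29, SE 0.061, limma adjusted p = 0.00151). Both TMEM199 and TMEM230 were also called higher after TMM scaling.

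Of the 9 members at the cilium transition zone, the gate between cilium and cytoplasm, 5 were lower, 2 were higher and 2 did not pass, with a median log2 fold change of -0.21. The shares lower and higher were 55.6% and 22.2%, beside 17.6% and 42.2% of all tested genes. TMEM67, or meckelin, had 7.59, 7.88 and 7.06 FPKM in siOXTR libraries, against 13.34, 12.81 and 14.72 FPKM in siControl libraries (log2 fold change -0.78, SE 0.068, limma adjusted p = 1.47e-06). TMEM231 averaged 2.92 ± 0.194 FPKM in siOXTR libraries and 4.26 ± 0.144 FPKM in siControl libraries, and TMEM107 averaged 7.01 ± 0.532 FPKM in siOXTR libraries and 9.03 ± 0.266 FPKM in siControl libraries (SD, n = 3 each). Their log2 fold changes were -0.42 for TMEM231 (SE 0.070, limma adjusted p = 3.02e-04) and -0.33 for TMEM107 (SE 0.067, limma adjusted p = 0.00130). TMEM216 and TMEM218 were the called rises. TMEM216, mutated in Joubert syndrome, had 13.53, 15.03 and 13.10 FPKM in siOXTR libraries, against 9.95, 13.05 and 8.79 FPKM in siControl libraries (log2 fold change 0.37, SE 0.114, limma adjusted p = 0.0159). The groups of TMEM216 nearly touched, and it was not called after TMM scaling (log2 fold change 0.26, limma adjusted p = 0.0902) or without siOXTR library 2 (0.32, limma adjusted p = 0.0549). After TMM scaling 6 transition zone members were called lower and 0 higher, beside 24.3% and 19.6% of all tested genes.

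No mitochondrial member was called lower on the deposited scale. Of 15 tested, 6 (40.0%) were higher in siOXTR libraries, 0 were lower and 9 did not pass. Among all tested genes 42.2% were called higher and 17.6% lower. A positive log2 fold change was found in 14 of 15, beside 7917 of all 11550 tested genes, with a median of 0.14, close to the 0.13 of all tested genes. After TMM scaling 3 were called higher and 1 lower, 9 of 15 had a positive value and the median was 0.054, against 0.015 over all tested genes on that scale.  Of the 133 tested members outside mitochondria, 57 were lower and 23 higher, with a median of -0.07.

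TMEM126A, which takes part in the assembly of respiratory complex I, had the largest rise of all members and lies at chr11:85647977-85656543. It had 42.98, 49.15 and 48.74 FPKM in siOXTR libraries, against 28.11, 34.37 and 35.95 FPKM in siControl libraries. The lowest siOXTR library was above the highest siControl library, and the log2 fold change was 0.51 (SE 0.085, limma adjusted p = 3.61e-04). TMEM223, a factor in the making of cytochrome oxidase, had 26.20, 25.99 and 25.88 FPKM in siOXTR libraries, against 18.78, 21.70 and 20.35 FPKM in siControl libraries (log2 fold change 0.35, SE 0.060, limma adjusted p = 4.39e-04). In GENCODE, 26.6% of the exon bases of TMEM223 also lie in exons of TMEM179B on the opposite strand, and whether the authors' counting used strand is not given, so reads of the 2 genes may not be told apart.

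TMEM11, which shapes the inner membrane folds, had 28.94, 30.62 and 30.61 FPKM in siOXTR libraries, against 22.66, 23.17 and 25.41 FPKM in siControl libraries (log2 fold change 0.33, SE 0.059, limma adjusted p = 5.49e-04). TMEM126A, TMEM223 and TMEM11 were each also called higher after TMM scaling, with log2 fold changes of 0.39, 0.23 and 0.21. TMEM256 was called on the deposited scale (log2 fold change 0.29, SE 0.084, limma adjusted p = 0.0116) but not after TMM (0.16, limma adjusted p = 0.138), without siOXTR library 2 (0.24, limma adjusted p = 0.0507) or without siControl library 1 (0.19, limma adjusted p = 0.0518). The remaining called rises were TMEM186, a complex I assembly factor with a log2 fold change of 0.27, and TMEM70, an assembly factor of ATP synthase with 0.20, both named after their values were seen.

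TMEM14C, which carries a haem precursor into the mitochondrial matrix, had 125.23, 124.79 and 120.54 FPKM in siOXTR libraries, against 116.18, 120.45 and 120.41 FPKM in siControl libraries. The groups were adjacent and the difference did not pass (log2 fold change 0.05, SE 0.049, limma adjusted p = 0.364).

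**Figure D3:**
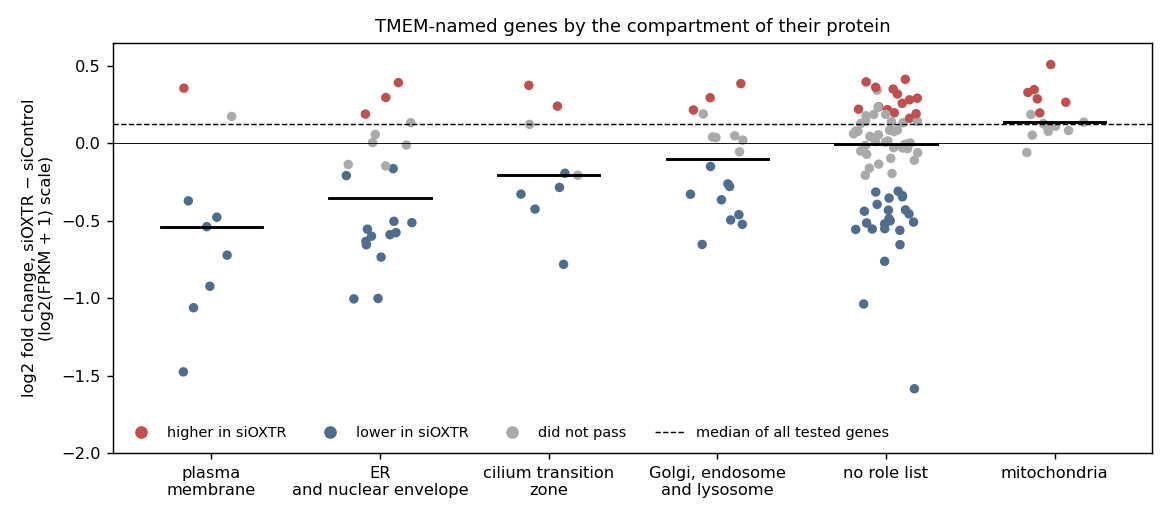
Log2 fold change (siOXTR minus siControl, on the log2(FPKM + 1) scale) of each tested TMEM-named gene, grouped by the compartment of its protein, with the median of each group as a bar and the median of all tested genes, 0.13, as a dashed line. The bars run from -0.54 for the plasma membrane to 0.14 for mitochondria, and 75 members had no list.

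The 75 tested members with no compartment list held the largest fall. Of them 14 were higher, 23 were lower and 38 did not pass, with a median log2 fold change of -0.005. The shares lower and higher were 30.7% and 18.7%, beside 17.6% and 42.2% of all tested genes. TMEM45A, a multi-pass protein known from differentiating keratinocytes and as a gene induced by hypoxia, lies at chr3:100492619-100577444. It had 1.64, 2.30 and 2.05 FPKM in siOXTR libraries, against 8.49, 7.57 and 7.79 FPKM in siControl libraries. TMEM45A was 3.98-fold lower in siOXTR libraries, with a log2 fold change of -1.58 (SE 0.086, limma adjusted p = 1.94e-08). Its levels were low, and the groups were still more than 3 times apart at their nearest libraries.

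TMEM245 was the next in this group after TMEM131L, with 13.02, 12.10 and 11.89 FPKM in siOXTR libraries, against 23.15, 20.50 and 21.17 FPKM in siControl libraries (log2 fold change -0.76, SE 0.063, limma adjusted p = 9.20e-07). Among the rises, TMEM141 had 49.82, 49.47 and 49.63 FPKM in siOXTR libraries, against 35.34, 39.68 and 36.18 FPKM in siControl libraries (log2 fold change 0.41, SE 0.056, limma adjusted p = 6.61e-05). TMEM139 had 81.66, 88.65 and 80.57 FPKM in siOXTR libraries, against 62.52, 66.61 and 66.85 FPKM in siControl libraries (log2 fold change 0.35, SE 0.056, limma adjusted p = 2.37e-04). TMEM125, TMEM40 and TMEM212 rose by 0.40, 0.36 and 0.32 on the log2 scale, with mean levels of 10.5, 25.5 and 14.5 FPKM in siOXTR libraries and 7.77, 19.7 and 11.4 FPKM in siControl libraries. These 5 rises were also called after TMM scaling.

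A larger share of members with long proteins fell than of members with short ones. Protein features were computed from GENCODE coding sequences for all 148 tested members. Of the 18 members with more than 500 residues, 15 were lower, 0 were higher and 3 did not pass (TMEM102, TMEM168 and TMEM175), with a median log2 fold change of -0.55. Members of more than 300 and at most 500 residues (39) had 22 lower and 2 higher, with a median of -0.31. Members of more than 150 and at most 300 residues (66) had 19 lower and 18 higher, with a median of 0.002. Members of at most 150 residues (25) had 1 lower, TMEM107, and 9 higher, with a median of 0.13. The rises of these short members depended on scaling. Of the 21 outside mitochondria, 8 were higher on the deposited scale (median 0.13) and 3 after TMM (median 0.01).

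Over the 148 members the Spearman rho of protein length and log2 fold change was -0.53, and it was also -0.53 over the 133 members outside mitochondria. Over the 11336 other tested genes with a protein model it was -0.20, and over the 3472 of these with a hydrophobic segment it was -0.094. These are descriptions across genes, which share the same 6 libraries, and the difference between them was not tested. Among other tested genes 19.7% were lower and 36.2% higher above 500 residues (median 0.09), 19.5% and 42.7% between 300 and 500 (0.13), 13.6% and 48.9% between 150 and 300 (0.17), and 5.81% and 62.9% at 150 or fewer (0.26). Length did not order all members. TMEM123 with 208 residues, TMEM109 with 243 and TMEM45A with 275 had log2 fold changes of -1.47, -1.0 and -1.58, and 19 of the 66 members of more than 150 and at most 300 residues were lower.

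**Figure D4:**
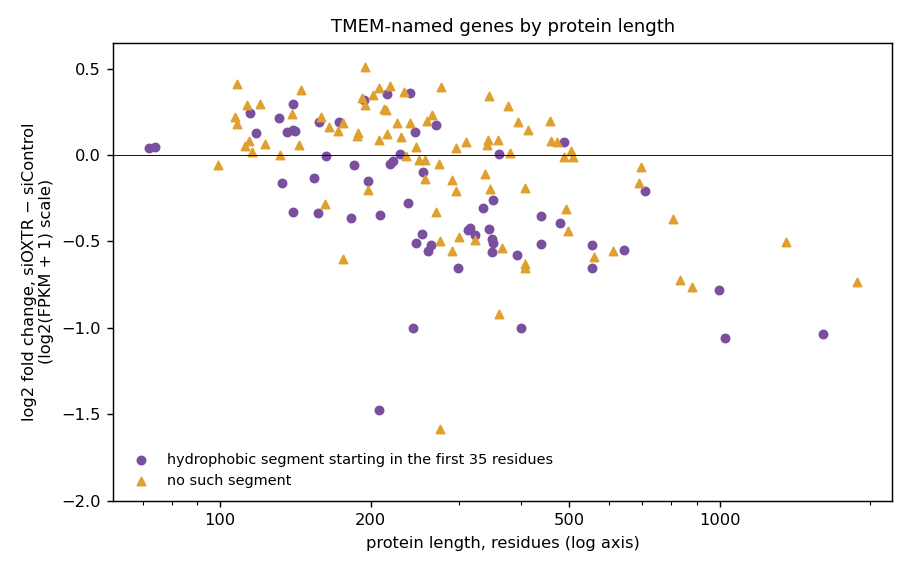
Log2 fold change (siOXTR minus siControl, on the log2(FPKM + 1) scale) of the 148 tested TMEM-named genes against the length of their protein in residues (log axis), with circles for a hydrophobic segment that starts within the first 35 residues and triangles for none. Most long proteins lie below 0, and 15 of the 18 above 500 residues were called lower.

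Hydrophobic segments, counted as separate windows of 19 residues that averaged 1.6 or more on the Kyte-Doolittle scale, also ordered the members by median. Of 21 members with 6 or more segments, 15 were lower and 0 higher, with a median of -0.44. Of 30 members with 4 or 5 segments, 14 were lower and 2 higher, with a median of -0.18. Of 65 members with 2 or 3 segments, 22 were lower and 17 higher, with a median of 0.05. Of 32 members with 0 or 1 segment, 6 were lower and 10 higher, with a median of 0.08. The cutoff can miss membrane spans. It found 0 segments in 4 members, TMEM11 among them, and 1 in the TRIC channel gene TMEM38B, against 5 in TMEM38A. The bins by segment, and the N-terminal segment below, are therefore approximate. The number of segments went with protein length (Spearman rho 0.42 across the 148 members), so the 2 features cannot be read apart. Of 370 other tested genes with 6 or more segments, 273 (73.8%) were lower and 17 higher, with a median of -0.41, beside 71.4% of the members lower. Of other tested genes with 4 or 5 segments 62.3% were lower (median -0.28), beside 46.7% of members, and of those with 2 or 3 segments 46.1% were lower (median -0.12), beside 33.8% of members. With 0 or 1 segment 11.7% of other tested genes were lower (median 0.15), beside 18.8% of members.

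A hydrophobic segment that started within the first 35 residues, as in a signal peptide or an early membrane anchor, was present in 60 members. Of these 34 were lower and 8 higher, with a median of -0.29, against 788 lower and 147 higher of 1300 other tested genes with such a segment and a median of -0.33. The 88 members with none had 23 lower (26.1%) and 21 higher (23.9%), with a median of 0.05. Of 10036 other tested genes with none, 11.8% were lower and 46.5% higher, with a median of 0.15. Protein length and the N-terminal segment were then combined. With no N-terminal segment and more than 300 residues, 16 of 34 members were lower and 2 higher (median -0.14). Of 7380 other tested genes of this kind, 13.8% were lower and 42.4% higher (median 0.13). With an N-terminal segment and at most 300 residues, 13 of 37 members were lower and 8 higher (median -0.03). Of 426 other tested genes of this kind, 183 were lower and 81 higher (median -0.13). Of 23 members with an N-terminal segment and more than 300 residues, 21 (91.3%) were lower and 0 higher, with a median of -0.49, and of 874 other tested genes of this kind 69.2% were lower and 7.55% higher, with a median of -0.45. Of 54 members with no N-terminal segment and at most 300 residues, 7 were lower and 19 (35.2%) higher, with a median of 0.12, and of 2656 other tested genes of this kind 6.51% were lower and 57.9% higher, with a median of 0.22.

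The motif for N-linked glycosylation (asparagine, any residue but proline, then serine or threonine) went the same way. Members with at least 3 such motifs (41) had 27 lower and 2 higher, with a median of -0.43, and members with none (59) had 8 lower and 21 higher, with a median of 0.14. Of other tested genes with at least 3 motifs 23.1% were lower and 35.1% higher (median 0.08), and of those with none 11.1% were lower and 51.6% higher (median 0.19). The number of motifs was not adjusted for protein length, and which of them face the ER lumen was not determined.

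The members were next set beside other genes whose protein has a hydrophobic segment. Of 144 members with at least 1 segment, 38.9% were lower and 18.8% higher, with a median of -0.03. Of 3472 other tested genes with at least 1 segment, 40.8% were lower and 23.4% higher, with a median of -0.06. Of 7864 other tested genes with none, 7.12% were lower and 50.9% higher, with a median of 0.17. Among genes named in a like way, the 20 tested SMIM genes, which encode small integral membrane proteins, had 2 lower and 13 higher (5 higher after TMM), and the 9 tested TMED genes, which encode cargo receptors of ER to Golgi vesicles, had 7 lower and 0 higher (8 lower after TMM). These differences in share were not tested.

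Genes that share a TMEM number and differ in the last letter did not always move alike. There were 25 such pairs among the tested members, made of 44 genes. The ratio of the 2 genes within a library does not depend on library scaling, apart from the pseudocount of 1 FPKM. In 14 of 25 pairs the log2 ratio did not overlap between siOXTR and siControl libraries, against 43.3% of 964 pairs of other tested genes whose symbols differ in a last letter. An exact permutation test of 3 against 3 libraries cannot go below p = 0.1, which these 14 pairs had (two-sided, 0.179 after Benjamini-Hochberg adjustment over the 25 pairs), so none passed 0.05.

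The ratio of TMEM45A to TMEM45B changed most. Its log2 ratio averaged -2.31 ± 0.128 in siOXTR libraries and -1.23 ± 0.089 in siControl libraries (SD, n = 3), a difference of -1.08. TMEM45B, which has 45.3% of aligned residues in common with TMEM45A, also fell, with 13.35, 14.03 and 14.05 FPKM in siOXTR libraries, against 19.92, 20.36 and 19.51 FPKM in siControl libraries (log2 fold change -0.50, SE 0.054, limma adjusted p = 1.10e-05). TMEM45B was the more abundant of the pair in both groups.

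TMEM184A did not pass the test, while TMEM184B and TMEM184C fell. TMEM184A had 6.68, 6.54 and 6.01 FPKM in siOXTR libraries, against 5.76, 6.34 and 5.07 FPKM in siControl libraries (log2 fold change 0.14, SE 0.078, limma adjusted p = 0.129). TMEM184B had 20.32, 19.10 and 17.97 FPKM in siOXTR libraries, against 31.54, 31.66 and 28.76 FPKM in siControl libraries (log2 fold change -0.65, SE 0.063, limma adjusted p = 3.45e-06). TMEM184C had 4.61, 4.51 and 4.73 FPKM in siOXTR libraries, against 7.13, 6.80 and 7.12 FPKM in siControl libraries (log2 fold change -0.51, SE 0.061, limma adjusted p = 2.40e-05). The log2 ratio of TMEM184A to TMEM184B differed by 0.80 between the groups, and that of TMEM184A to TMEM184C by 0.66. In GENCODE, 12.9% of the exon bases of TMEM184A lie in exons of MAFK on the opposite strand.

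TMEM50A and TMEM50B, which share 69.9% of their aligned residues, were the 1 pair called in opposite directions. TMEM50A had 40.35, 44.61 and 43.89 FPKM in siOXTR libraries, against 54.96, 52.78 and 55.65 FPKM in siControl libraries (log2 fold change -0.34, SE 0.055, limma adjusted p = 3.01e-04). TMEM50B had 40.18, 40.80 and 38.12 FPKM in siOXTR libraries, against 33.04, 33.68 and 37.27 FPKM in siControl libraries (log2 fold change 0.19, SE 0.059, limma adjusted p = 0.0148). Their log2 ratio averaged 0.11 ± 0.097 in siOXTR libraries and 0.64 ± 0.076 in siControl libraries (SD, n = 3). After TMM scaling TMEM50B was not called (log2 fold change 0.07, limma adjusted p = 0.366), and its call was also lost without siOXTR library 2 (limma adjusted p = 0.0657) or siControl library 1 (limma adjusted p = 0.0551). TMEM50A was called on both scales.

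TMEM30A fell more than its relative TMEM30B, also a flippase subunit, which averaged 12.1 ± 0.191 FPKM in siOXTR libraries and 17.7 ± 0.983 FPKM in siControl libraries (SD, n = 3), and their log2 ratio differed by -0.41. TMEM126A rose while TMEM126B, another complex I assembly factor, averaged 73.6 ± 1.57 FPKM in siOXTR libraries and 68.4 ± 4.68 FPKM in siControl libraries (SD, n = 3) and did not pass (log2 fold change 0.11, limma adjusted p = 0.125). TMEM161A fell (log2 fold change -0.39, limma adjusted p = 0.00102), and TMEM161B did not pass (0.08, limma adjusted p = 0.304). TMEM41A fell (log2 fold change -0.52, limma adjusted p = 1.35e-05), and TMEM41B, an ER scramblase needed for autophagy, did not pass (-0.15, limma adjusted p = 0.130). TMEM41B was called lower, however, after TMM scaling (-0.27, limma adjusted p = 0.016) and after rescaling to a common sum (-0.23, limma adjusted p = 0.0249). The log2 ratio of TMEM39A to TMEM39B differed by 0.30 and that of TMEM9 to TMEM9B by -0.21, each with no overlap of the groups. The call of TMEM9B itself (log2 fold change -0.15, limma adjusted p = 0.0276) was lost without siOXTR library 1 (adjusted p = 0.0611), 2 (0.0571) or 3 (0.118) or siControl library 2 (0.0538), all from limma.

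In other pairs the 2 genes had similar fold changes. TMEM185A and TMEM185B, identical at 88.6% of aligned residues, had log2 fold changes of -0.49 and -0.56, both called, and their log2 ratio differed by 0.08 with overlap of the groups. TMEM14B and TMEM14C, and TMEM167A and TMEM167B each had log2 fold changes between 0.04 and 0.08 that did not pass. TMEM191B and TMEM191C encode proteins identical at 99.4% of aligned residues, and their single values are uncertain, since reads can fit either copy. In siOXTR library 1 they had 4.35 and 0.22 FPKM. Their sum was 4.57, 4.88 and 4.49 FPKM in siOXTR libraries, against 3.15, 3.78 and 4.55 FPKM in siControl libraries, and the groups overlapped.

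**Figure D5:**
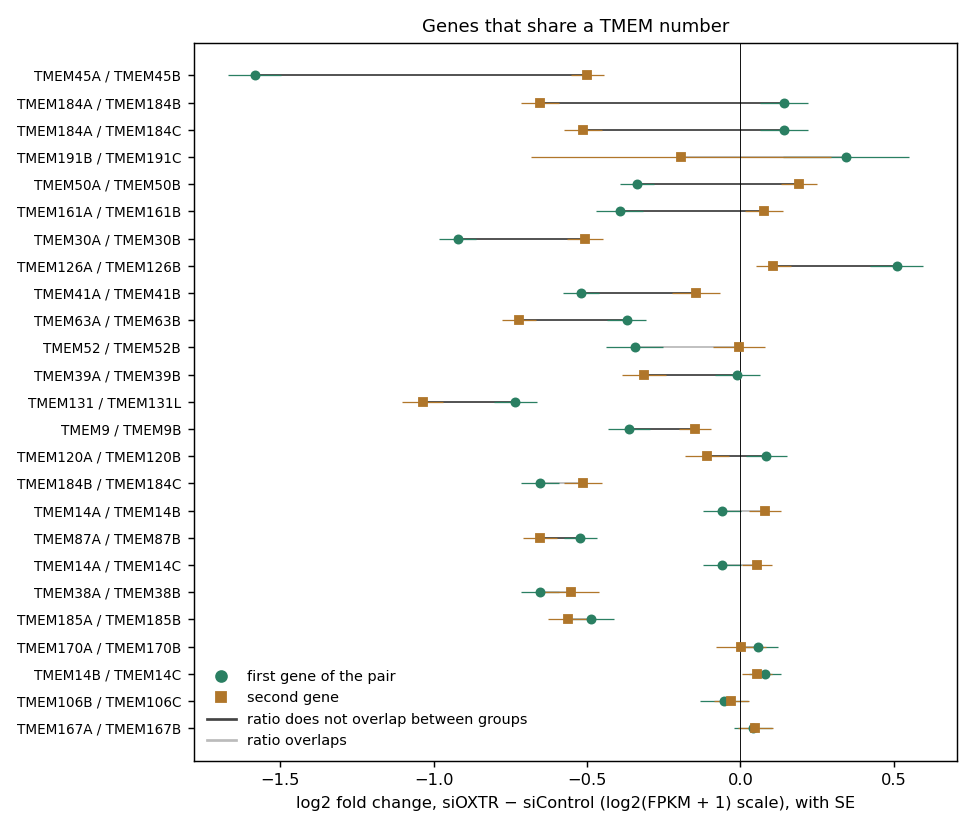
Log2 fold change (siOXTR minus siControl, on the log2(FPKM + 1) scale, with the standard error of the limma fit) of both genes of each of 25 pairs that share a TMEM number, in order of the difference within the pair. Dark links mark the 14 pairs whose log2 ratio did not overlap between the groups, with TMEM45A and TMEM45B, at -1.58 and -0.50, farthest apart.

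The remaining 59 members had a mean under 1 FPKM and were not tested. Of these, 28 were under 0.1 FPKM, 0 were listed at 0 in all libraries, and 2 reached 1 FPKM in some library. Just above the limit, TMEM158 had 0.75, 0.66 and 0.70 FPKM in siOXTR libraries, against 1.41, 1.45 and 1.25 FPKM in siControl libraries. TMEM81 had 0.95, 0.95 and 0.88 FPKM in siOXTR libraries, against 0.80, 0.94 and 1.5 FPKM in siControl libraries. Just below it, TMEM74B had 0.91, 0.35 and 0.53 FPKM in siOXTR libraries, against 0.98, 1.2 and 0.99 FPKM in siControl libraries, and TMEM220 had 0.91, 0.82 and 0.93 FPKM in siOXTR libraries, against 0.74, 0.65 and 0.59 FPKM in siControl libraries. TMEM158, TMEM74B and TMEM220 did not overlap between groups, while TMEM81 did, and 64.4% of all tested genes had no overlap. TMEM158 and TMEM81 averaged 1 FPKM or more in siControl libraries only, so their differences are tied to the filter.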

How the data were processed

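The deposited files give FPKM per gene and library, per the file headers. The build the authors used was GRCh38.p13 (submitters' processing notes). For the aligner, counter, annotation and strand setting the sources used here give no name. Depth is unknown, and low values showed no steps of whole fragments, so no interval from counts is given.

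Genes averaging 1 FPKM or more entered a limma 3.58.1 fit (R 4.3.3) on the log2(FPKM + 1) scale (group as the only term, trend and robust prior, two-sided), adjusted by Benjamini-Hochberg over all 11550 genes at 0.05. The script was tested on simulated data. Folds marked "-fold" are ratios of mean FPKM, and ± is SD. TMM and a rescaling to a common sum (TPM), other filters and pseudocounts, a replicate block and leaving out each library were alternatives. Same-numbered libraries did not deviate together throughout (r 0.107, 0.00421 and 0.16), so numbers were not taken as pairs. Proteins were translated from GENCODE 29, whose coordinates (GRCh38) are given. Promoters are RefSeq's (GRCh38.p14). TMM was coded anew. Identity was computed by pairwise alignment with Biopython 1.88, and pair ratios were tested with scipy 1.17.1.

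The members, compartment lists and tests were chosen with earlier results of these data known. Named members were the 12 largest falls and 12 largest rises among called members with no overlap, the 5 with the highest mean, up to 4 per compartment list by size of change, both genes of each pair, and the 2 on each side of 1 FPKM. TMEM18, TMEM70, TMEM102, TMEM115, TMEM168, TMEM175, TMEM179B, TMEM181, TMEM186, TMEM208, TMEM218, TMEM237, TMEM250, TMEM251 and TMEM260 fall outside this rule and are named to account for counts, a motif or an overlap, after their values were seen.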

Additional observations from a re-analysis of the deposited data

How the results depend on the processing

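The 69 named members gave 884 combinations of a member and an alternative setting. Of these, 832 kept direction and side of the threshold, 30 changed sign, 8 became called and 14 lost their call. With TMM 2267 genes in all and 13 members were called higher, and with TPM 2942 and 18. With TMM the median log2 fold changes were -0.137 for all members, 0.0535 (mitochondria), -0.465 (ER and nuclear envelope), -0.215 (Golgi, endosome and lysosome), -0.647 (plasma membrane) and -0.310 (cilium transition zone). With TPM they were -0.104 for all members, -0.458 (ER and nuclear envelope), -0.188 (Golgi, endosome and lysosome), -0.720 (plasma membrane) and -0.306 (cilium transition zone). With a pseudocount of 0.1 FPKM they were 0.196 (mitochondria), -0.387 (ER and nuclear envelope) and -0.767 (plasma membrane). With no filter on low values the median of all members changed sign to 0.00479 and that of plasma membrane members was -0.423. With a mean of at least 5 FPKM the medians were 0.187 (mitochondria), -0.503 (ER and nuclear envelope), -0.149 (Golgi, endosome and lysosome) and -0.721 (plasma membrane). For these the cause was not tested. Without the members that share at least 10% of their exon bases with another gene, chosen after seeing the data, 27 were higher and 56 lower.

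Leaving out each library gave 21 to 33 members higher and 53 to 58 lower, with medians of -0.0491 to -0.0073 for all members, 0.140 to 0.208 (mitochondria), -0.362 to -0.325 (ER and nuclear envelope) and -0.135 to -0.0837 (Golgi, endosome and lysosome). The calls lost, of TMEM9B, TMEM50B, TMEM256 and TMEM216, had limma adjusted p between 0.0507 and 0.118. With the replicate block 31 members were higher and 59 lower and no named call changed, although the numbers are not shown to pair the libraries. Over all tested genes 7205 were called with the block, against 6905 in the main fit. Whether same-numbered libraries share a source was not tested.

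Sign changes were all in members that were not called. With TMM these were TMEM14B (-0.0457), TMEM14C (-0.0720), TMEM120A (-0.0341), TMEM126B (-0.0175), TMEM161B (-0.0417), TMEM167A (-0.0803), TMEM167B (-0.0701), TMEM170A (-0.0585) and TMEM170B (-0.0916). With TPM they were TMEM14B (-0.00587), TMEM14C (-0.0325), TMEM161B (-0.00404), TMEM167A (-0.0425), TMEM167B (-0.0333), TMEM170A (-0.0226) and TMEM170B (-0.0712). With a library left out the log2 fold change ran between -0.0601 and 0.0593 for TMEM39A, -0.0778 and 0.0515 for TMEM52B, -0.0697 and 0.0649 for TMEM170B, -0.0134 and 0.0873 for TMEM167A, -0.193 and 0.0439 for TMEM81, -0.0672 and 0.00875 for TMEM106C, and -0.50 and 0.312 for TMEM191C, which was called higher (limma adjusted p = 0.0365) without siOXTR library 1.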
